A study of Mus musculus with 6 samples.

Results

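The 9 genes described here encode the p38 MAP kinases, the kinases that switch them on, and phosphatases that switch MAP kinases off. They were chosen by name as rows of the deposited count table, 9 of its 47729 genes: the MAP2 kinase genes Map2k3 and Map2k6, the p38 genes Mapk11, Mapk12, Mapk13 and Mapk14, and the dual-specificity phosphatase genes Dusp1, Dusp4 and Dusp6. Map2k6 was picked for its pattern in these same libraries, so its difference between the groups is given as a description, with no test. The study sequenced RNA from mouse left ventricle taken 9 days after transverse aortic constriction (TAC), surgery that narrows the aorta and raises the pressure load on the heart. There were 6 libraries: 3 from operated mice labelled control and 3 from operated mice labelled Treg. The series title speaks of regulatory T cells induced in vitro and deprived of CD28, given systemically. What the control mice received, and the strain, sex and age of the mice, are not stated in the labels, and no unoperated heart was analysed here.

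The p38 kinases sit at the bottom of a relay of kinases that answers mechanical, oxidative and inflammatory stress. MAP3 kinases phosphorylate the MAP2 kinases MKK3 (Map2k3) and MKK6 (Map2k6), which phosphorylate a threonine and a tyrosine in the activation loop of p38. Phosphatases of the DUSP family remove those phosphates, and several of their genes are themselves induced by MAP kinase signalling, which closes a feedback loop. In heart muscle the pathway is known to be engaged by pressure load and to act on hypertrophic growth, contractile function and fibroblast activation. Messenger RNA levels do not report phosphorylation, which was not measured here.

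The libraries held 28937253 to 29979080 counts. Control replicate 3 stood apart from the other libraries: its correlations of log2 CPM (counts scaled to the library total and to a common size) with them were 0.947 to 0.964, against a best match of 0.984 to 0.993 for each of the other 5. Neutrophil markers summed to 32.5 CPM there and to 6.53 to 17.4 CPM elsewhere, and erythroid markers to 291.7 CPM against 1073.1 to 2848.7. Of the neutrophil markers, S100a8 (12.0 CPM), S100a9 (13.1) and Retnlg (1.75) were highest in control replicate 3. Csf3r was not, at 5.72 CPM there against 7.09 and 6.92 CPM in Treg replicates 1 and 2. Ly6g had 0 counts in control replicate 3. Treg replicate 3 held atrial muscle transcripts, with 1202 counts of Myl7, of which no other library had more than 6. The 7 cardiomyocyte markers summed to 31359.6 to 45954.0 CPM in control and 37205.7 to 51327.8 CPM in Treg. Of the 7, 3 (42.9%, against 25.4% of all genes tested) were higher in every Treg library than in every control. These were Pln, Myl2 and Actc1 (log2 fold changes 0.56, 0.59 and 0.30). The groups overlapped for Myh6 (0.19), Tnni3 (0.20), Tnnt2 (−0.28) and Ryr2 (−0.19). The 7 T cell markers summed to 17.7 CPM in control replicate 3 and to 3.10 to 5.16 CPM in the other libraries. Among them Cd3e had 82, 36 and 465 counts in control and 12, 16 and 15 in Treg. It made up 15.7 of the 17.7 CPM in control replicate 3. Trac, Cd8a, Cd3g and Cd4 did not share that direction. Trac had 5, 4 and 0 counts in control and 7, 7 and 13 in Treg, and Cd8a 3, 2 and 1 against 5, 3 and 7. Cd3g had 3, 0 and 0 against 11, 9 and 3, and Cd4 4, 10 and 7 against 13, 9 and 27. Cd3d, near 0, had 2, 1 and 3 counts in control and 2, 0 and 0 in Treg, and Foxp3 had 42 to 56 throughout. In whole tissue, fewer cells of a type and less RNA per cell cannot be told apart.

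Both p38 MAP2 kinase genes lie on chromosome 11. Of the 8 members tested, they are the 2 whose levels lay apart between the groups, in opposite directions. Map2k6 was picked for its pattern, and 25.4% of all tested genes had groups that lay apart, so the pair is a description. The 250 bases before their start sites are shown for comparison of the pair, with that of Dusp1, a phosphatase gene whose groups overlapped. RefSeq windows (GRCm38.p6) were found for 8 of the 9 members (not for Dusp4), 11 windows in all, and the transcribed bases of each window were left out. Map2k6 has 3 listed starts, and the window shown, chr11:110398852-110399101 (plus strand), is before the most upstream one. The Map2k3 window is chr11:60931804-60932053 (plus strand) and the Dusp1 window is chr17:26508473-26508722 (minus strand). Capitals mark 4 motifs searched on both strands. They include TGACGTCA, the cyclic AMP response element, CACGTG, an E-box, and GGGCGG, a GC box. The other, TGANTCA, is a loose form of the AP-1 element in which N is any base.
Map2k6: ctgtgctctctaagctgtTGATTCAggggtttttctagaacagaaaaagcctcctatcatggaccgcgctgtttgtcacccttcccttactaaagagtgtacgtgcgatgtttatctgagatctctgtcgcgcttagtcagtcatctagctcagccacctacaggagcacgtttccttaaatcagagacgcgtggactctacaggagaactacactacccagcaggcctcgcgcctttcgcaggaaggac
Map2k3: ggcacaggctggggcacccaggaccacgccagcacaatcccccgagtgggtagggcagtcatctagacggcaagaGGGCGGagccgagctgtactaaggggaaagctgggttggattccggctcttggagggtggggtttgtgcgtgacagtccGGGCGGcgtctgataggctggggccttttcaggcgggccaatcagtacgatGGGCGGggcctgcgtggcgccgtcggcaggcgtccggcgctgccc
Dusp1: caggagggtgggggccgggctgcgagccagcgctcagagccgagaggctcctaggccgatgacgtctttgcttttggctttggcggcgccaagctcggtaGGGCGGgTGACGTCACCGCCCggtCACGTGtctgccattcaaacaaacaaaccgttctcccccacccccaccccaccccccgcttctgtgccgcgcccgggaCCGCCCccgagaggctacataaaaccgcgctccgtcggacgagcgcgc

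The Map2k6 window held 1 match to the loose AP-1 form, TGATTCA, with its left base 232 bases before the start. That window was 50.4% G or C. The windows before the other 2 Map2k6 starts held no AP-1 match: one held a GC box at 173 bases (43.2% G or C) and the other none of the 4 motifs (49.2%). The Map2k3 window held no AP-1 match and 3 GC boxes, with left bases 175, 96 and 45 bases before the start, and 67.6% G or C. The Dusp1 window held a TGACGTCA match 143 bases before the start, directly followed by a GC box at 135, 2 other GC boxes at 150 and 48, and an E-box at 126. Among 32851 windows of this length in the RefSeq table, 1.55% held TGACGTCA, 6.75% TGANTCA, 6.02% CACGTG and 32.7% GGGCGG. A match describes the letters in the window, and counts per gene do not show which Map2k6 start was used.

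Map2k6 (MKK6; chromosome 11, 110399122 to 110525522, plus strand) was the member with the widest gap. It had 25, 46 and 38 counts in the control libraries and 173, 117 and 173 in the Treg libraries, or 0.877, 1.52 and 1.28 CPM against 5.70, 4.22 and 5.43 CPM. Every Treg library lay above every control library. The means were 1.23 ± 0.326 CPM and 5.12 ± 0.791 CPM (SD, n = 3 libraries), a fitted log2 fold change of 2.06 ± 0.27 (SE), or 4.16-fold higher in Treg. These are low counts. Without control replicate 3, the library that stood apart, the fitted log2 fold change was 2.09. Since Map2k6 was picked for its pattern in these libraries, that value is a description. All 6 deposited Map2k6 values were whole numbers, and no annotated gene overlaps it in GENCODE M21.

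Map2k3 (MKK3; chromosome 11, 60932033 to 60952811, plus strand), which shares p38 as substrate with Map2k6, stood at 63.7, 66.9 and 105.7 CPM in control and 50.9, 50.6 and 57.4 CPM in Treg. All 3 Treg libraries lay below all 3 control libraries, and the wide control spread came from control replicate 3. The log2 fold change was −0.57 ± 0.21 (SE), with a 95% interval of −1.06 to −0.09. It did not pass the threshold, an adjusted p under 0.05 over all 17365 genes tested, with an adjusted p of 0.26 by edgeR's quasi-likelihood test. Without control replicate 3 the log2 fold change was −0.30 (edgeR adjusted p = 0.188; 0.136 to 0.621 over all alternatives).

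Groups that do not overlap are frequent in these data. Of the 8 members tested, Map2k6 (used by the choice of members) and Map2k3 had no overlap, where 25.4% of all tested genes had none, 13.7% with Treg higher and 11.7% with Treg lower. By edgeR 0 of 17365 genes passed the threshold (0%), and 2873 had an unadjusted p under 0.05. DESeq2 called 650 genes (3.74%), none of them among the 7 members other than Map2k6, and limma-voom called 0. Without control replicate 3 edgeR called 230 of 17648 genes (1.3%), again none of those 7 members.

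**Figure D1:**
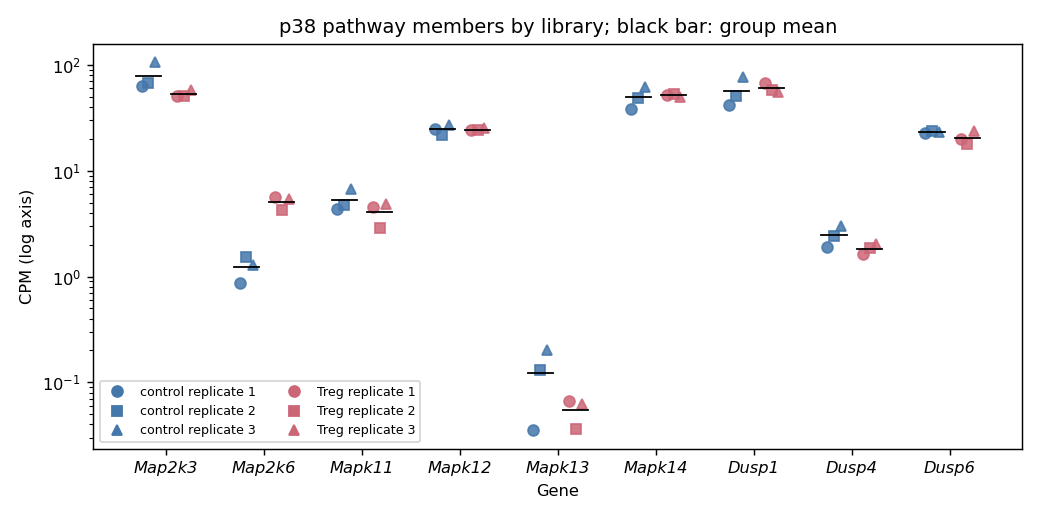
CPM on a log axis for the 9 genes in each of the 6 libraries (control blue, Treg red, black bars for group means). Map2k6, picked for its pattern, lies at 0.877 to 1.52 CPM in control, wholly below its 4.22 to 5.70 CPM in Treg. Map2k3 at 63.7 to 105.7 CPM in control lies wholly above its 50.6 to 57.4 CPM in Treg. The p38 kinases and phosphatases overlap between the groups. Of all tested genes, 25.4% had groups without overlap.

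Divided by exon length, the gap left Map2k6 a minor transcript. Map2k3 stood at 15.3 to 31.9 CPM per kb across the 6 libraries and Map2k6 at 0.255 to 0.442 in control and 1.23 to 1.66 in Treg. Map2k6 thus made up 1.31%, 2.14% and 1.15% of the MAP2 kinase pair's level per kb in the control libraries and 9.73%, 7.43% and 8.35% in the Treg libraries. Map2k3 exceeded Map2k6 by 45.6 to 85.9 times in control and by 9.27 to 12.5 times in Treg. The summed level of the pair was 19.5, 20.6 and 32.3 CPM per kb in control and 17.0, 16.5 and 18.9 in Treg, so the sum was no higher in any Treg library than in any control library. These shares use Map2k6 and are a description.

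Mapk14, which encodes p38 alpha, the main p38 of heart muscle (chromosome 17, 28691329 to 28748406, plus strand), stood at 38.4, 48.7 and 61.4 CPM in control and 52.3, 53.5 and 50.2 CPM in Treg. The Treg libraries fell within the control range. Its log2 fold change was 0.07 ± 0.18 (SE; 95% interval −0.34 to 0.48; edgeR adjusted p = 0.852), and it was −0.07 without control replicate 1 and 0.26 without control replicate 3.

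Mapk12, p38 gamma, the isoform best known from striated muscle, had close values in all libraries: 24.8, 21.9 and 27.2 CPM in control and 24.2, 24.1 and 25.2 CPM in Treg. Its log2 fold change was −0.00, and the 95% interval, −0.30 to 0.29, is the narrowest among the members tested (edgeR adjusted p = 0.989). Mapk11, p38 beta, lies next to Mapk12 on chromosome 15 and stood at 4.39, 4.77 and 6.73 CPM in control and 4.55, 2.88 and 4.80 CPM in Treg. Its groups overlapped, with a log2 fold change of −0.37 ± 0.27 (SE; 95% interval −1.0 to 0.25; edgeR adjusted p = 0.494), and −0.16 without control replicate 3. Mapk13, p38 delta, was near the limit of detection at 1, 4 and 6 counts in control and 2, 1 and 2 in Treg, and did not pass the filter on low counts. The exact Poisson 95% intervals of 6 counts, 2.2 to 13.1, and of 1 count, 0.0253 to 5.57, cover counting error only and overlap. They are intervals of single libraries and do not compare the groups, and a difference in Mapk13 was not tested.

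Per kb of exon, Mapk14 held 52.2% to 59.9% of the summed p38 level in control and 58.0% to 62.5% in Treg. Mapk12 held 30.3% to 38.7% and 31.9% to 33.5%, Mapk11 8.89% to 9.90% and 5.10% to 8.40%, and Mapk13 at most 0.272% in any library. The Mapk11 share was lower in every Treg library than in every control library, and the other shares overlapped. That comparison of Mapk11 shares was noticed after the values were seen and was not tested.

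**Figure D2:**
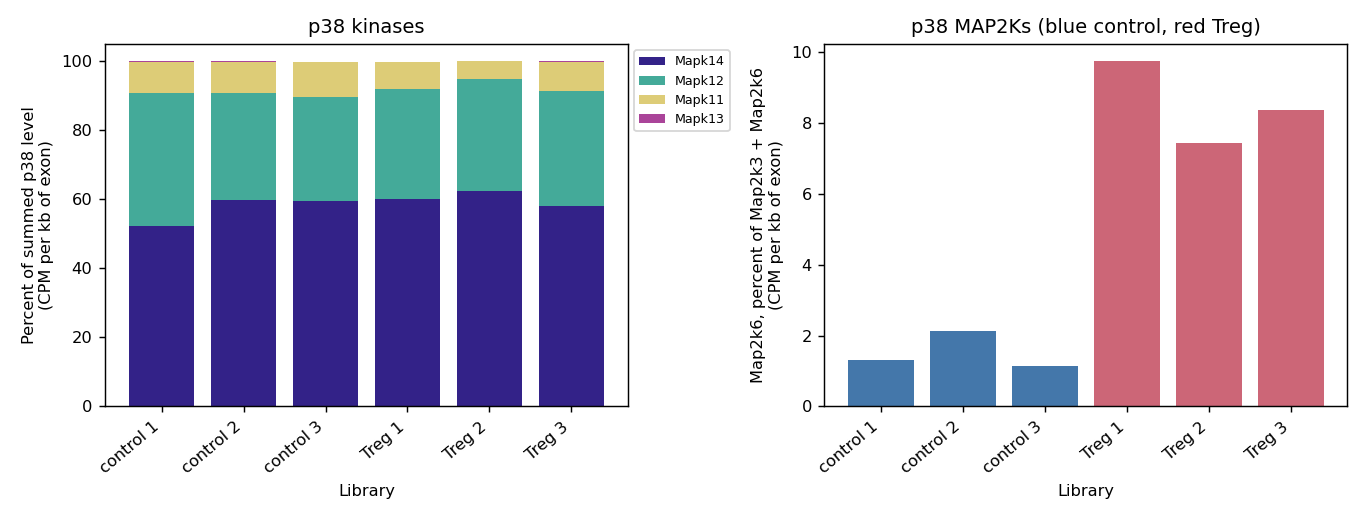
Left, share of the summed p38 level (CPM per kb of exon) held by each p38 gene in each library. Right, Map2k6 as a percent of Map2k3 plus Map2k6 on the same scale, at 1.15% to 2.14% in the control libraries and 7.43% to 9.73% in the Treg libraries.

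Dusp1, also called MKP-1, a nuclear phosphatase of p38 and JNK that is induced early after stress and by glucocorticoids, stood at 41.4, 50.7 and 77.6 CPM in control and 66.9, 58.1 and 56.0 CPM in Treg. The Treg values lay inside the control range, and control replicate 3 was the highest of all libraries. The log2 fold change was 0.09 ± 0.23 (SE; 95% interval −0.44 to 0.63; edgeR adjusted p = 0.856), and it moved to 0.39 without control replicate 3 and −0.08 without control replicate 1. In GENCODE M21 Dusp1 shares 11 exonic bases with Ergic1 on the opposite strand (1003.5 to 1218.5 deposited counts), and no source used here says whether the counting used strand.

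Dusp4, a nuclear phosphatase induced by ERK activity, stood at 1.89, 2.42 and 3.03 CPM in control and 1.62, 1.84 and 2.01 CPM in Treg. The groups overlapped at the control replicate 1 value, and the log2 fold change was −0.43 ± 0.25 (SE; 95% interval −1.01 to 0.16; edgeR adjusted p = 0.419), or −0.24 without control replicate 3. Dusp6, a cytoplasmic phosphatase selective for ERK rather than p38, stood at 22.8, 23.7 and 23.2 CPM in control and 20.0, 17.9 and 23.5 CPM in Treg. Treg replicate 3 reached the control level and the other Treg libraries did not. Its log2 fold change was −0.18 ± 0.14 (SE; 95% interval −0.50 to 0.14; edgeR adjusted p = 0.513), at −0.29 without Treg replicate 3 and −0.10 without Treg replicate 2.

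Across the 6 libraries the order of mean level per kb, leaving out Map2k6, ran from Map2k3 (19.9 CPM per kb) over Dusp1 (17.7), Mapk14 (11.6), Dusp6 (6.97), Mapk12 (6.46), Mapk11 (1.62) and Dusp4 (0.779) to Mapk13 (0.0283). Dusp1 lay above Mapk14, Mapk14 above Dusp6, Mapk12 above Mapk11, Mapk11 above Dusp4 and Dusp4 above Mapk13 in every library. Map2k3 and Dusp1 changed places between libraries, as did Dusp6 and Mapk12. The place of Map2k6 differed between the groups. In each control library it lay below Dusp4 (means 0.356 and 0.893 CPM per kb), and in each Treg library above it (1.49 and 0.665), where its range overlapped that of Mapk11 (1.41). Among the members tested, 6 of 8 had their highest value in control replicate 3, where 33.3% of all tested genes did, and Map2k6 and Dusp6 were the exceptions. Relative to the mean of the other 2 controls, control replicate 3 held 1.68 times as much Dusp1, 1.62 times as much Map2k3 and 1.07 times as much Map2k6. The part of that library's neutrophil markers in these values was not tested.

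**Figure D3:**
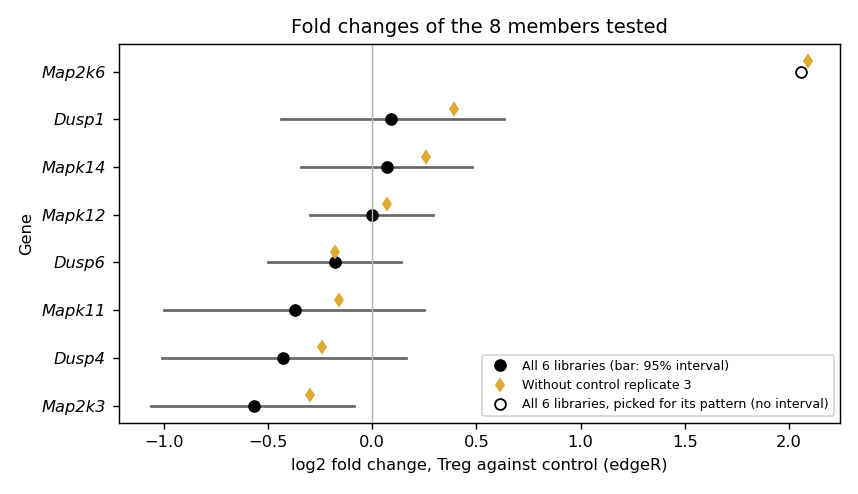
Fitted log2 fold changes of the 8 members tested, Treg against control, with 95% intervals for the 7 genes not picked for their pattern, and the values without control replicate 3 as diamonds. The interval of Map2k3, −1.06 to −0.09, lies below 0, and the intervals of the 3 p38 kinases and 3 phosphatases span 0.

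Map2k6 separates the groups, so genes that separate them tend to correlate with it, and the correlations below are a description. Of 12881 named genes whose mean was 1 CPM or more, 197 had a Pearson correlation of 0.9 or more with Map2k6 on the log2 CPM scale and 211 had −0.9 or less (n = 6 libraries, which share the 2 groups and have similar depth). The highest was Clcn1, a muscle chloride channel gene (r = 0.996), at 0.842 to 0.993 CPM in control and 1.80 to 1.98 in Treg. Next came Strbp (0.993), Hspb6, a small heat shock protein of muscle (0.992), Cmss1 (0.990) and Itga8, an integrin chain (0.989). The log2 fold change of Strbp was 0.16, so a high correlation did not need a large difference. The most opposed were Sars, a seryl-tRNA synthetase gene (−0.998), Strn, striatin (−0.995), and the clock gene Npas2 (−0.991). Of the other members Map2k3 had −0.682 and Mapk14 0.340. Of the 6 skeletal muscle markers, Myh4, Myh1 and Actn3 were at 0 to 4 counts in every library, and Tnnt3, fast troponin T, had 420, 860 and 81 counts in control and 52, 123 and 59 in Treg. The heart also makes the remaining 2, Acta1 and Ckm, which had log2 fold changes of −0.38 and 0.59. The list's part in the Map2k6 values was not tested.

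Upstream of the MAP2 kinases, 19 genes for MAP3 kinases and their adaptors were all tested and 0 passed the threshold. Their median log2 fold change was −0.02, against −0.019 for all genes, and 5 of 19 (26.3%) had groups without overlap, near the background. Gadd45g, a stress-induced activator of MEKK4, had the smallest p: it stood at 19.9, 26.6 and 39.5 CPM in control and 8.67, 7.50 and 14.9 CPM in Treg. Every Treg library was below every control, with a log2 fold change of −1.47 ± 0.33 (SE; edgeR adjusted p = 0.156; 0.00139 by DESeq2; 0.00139 to 0.593 over all alternatives). Its relative Gadd45a had 0.72 in the other direction (edgeR adjusted p = 0.283), Map3k5, the redox-sensing kinase ASK1, 0.53 (0.258), and Tab1, a partner of TAK1 that also binds p38 alpha, −0.28 (0.319).

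Downstream, 22 genes for kinases and substrates of p38 were tested and 0 passed, with a median log2 fold change of 0.16. Groups did not overlap for 5 of 22 (22.7%, against 25.4% of all genes tested). Ppargc1a, a coactivator of mitochondrial genes and a p38 substrate, stood at 69.9, 57.3 and 56.7 CPM in control and 90.3, 143.5 and 79.6 CPM in Treg, each Treg library above each control (0.77 ± 0.23 SE; edgeR adjusted p = 0.218). Its fold change was 0.47 without Treg replicate 2. Rps6ka5, the kinase MSK1, had 0.62 (edgeR adjusted p = 0.245). The small heat shock protein genes Hspb1 and Cryab, whose products are phosphorylated below p38, had −0.54 and −0.42 (0.265 and 0.335).

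Other MAP kinase phosphatase genes gave 12 tested of 14, 0 past the threshold and a median of −0.04. Groups did not overlap for 2 of them (16.7%, against 25.4% of all genes tested). These were Ppm1l, a PP2C-type phosphatase (0.49; edgeR adjusted p = 0.20), and Dusp16, which acts on JNK and p38 (0.21; 0.423). Ptprr had −0.67 (0.452), moving to −0.25 without control replicate 3, and Dusp8 had 0.39 (0.511), moving to 0.10.

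The sister cascades gave 0 calls as well. In the ERK arm 10 of 11 genes were tested, with a median of −0.06; Map2k1, the ERK kinase MEK1, stood at 60.5, 68.8 and 64.2 CPM in control and 47.8, 49.7 and 52.5 CPM in Treg, without overlap (−0.37; edgeR adjusted p = 0.219). Braf had −0.29 (0.362), Araf 0.14 (0.557) and Mapk7 −0.21 (0.597). In the JNK arm 7 of 8 were tested, with a median of 0.07. Of these 7 genes 42.9% had no overlap, against 25.4% of all genes tested, 2 genes with Treg higher and 1 with Treg lower. Map2k4, which activates JNK and can also phosphorylate p38, had −0.36 (edgeR adjusted p = 0.265) and Mapk10, JNK3, had 0.50 (0.257), both without overlap. Mapk8 had −0.18 (0.50) and Mapk8ip3 0.15 (0.545), the latter also without overlap.

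Genes induced by ERK or fed back on it, the setting of Dusp4 and Dusp6, had a median of −0.29 over 14 tested, with 12 of 14 fold changes below 0, where 48.0% of all genes had one above 0. Without control replicate 3 the median was −0.12. None passed by edgeR, and 21.4% had groups without overlap, against 25.4% of all genes tested. Etv4, an ETS factor, stood at 6.56, 6.65 and 8.62 CPM in control and 3.10, 2.96 and 3.96 CPM in Treg. Each Treg library was below each control, with a log2 fold change of −1.12 ± 0.21 (SE; edgeR adjusted p = 0.116; 0.000621 by DESeq2; 0.000621 to 0.53 over all alternatives). Spry1, a feedback inhibitor, had −0.33 (edgeR adjusted p = 0.271) and Ier3 −0.60 (0.348). Egr1 and Spred2 (0.07) had fold changes above 0. Egr1 stood at 19.9, 24.5 and 19.9 CPM in control and 40.1, 31.3 and 52.6 CPM in Treg (0.95 ± 0.20 SE; edgeR adjusted p = 0.141; 0.00422 to 0.53 over all alternatives, the lowest by DESeq2).

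Beside Dusp1, an early response gene, the list of 14 immediate early genes found had a median of 0.37 and 0 calls by edgeR. Fold changes were above 0 for 8 of them and below 0 for 6. The lowest was that of Fosb, −1.94, whose groups overlapped. Junb had −0.42 and Fos −0.07. Their summed levels were 308.8 to 458.6 CPM in control and 376.2 to 607.8 CPM in Treg. Groups did not overlap for 3 of the 14 (21.4%, against 25.4% of all genes tested). Jun stood at 39.3, 39.6 and 27.9 CPM in control and 71.8, 59.7 and 106.1 CPM in Treg, without overlap (1.15 ± 0.24 SE; edgeR adjusted p = 0.136; 0.0015 to 0.53 over all alternatives, the lowest by DESeq2). Egr3 had 1.27 (edgeR adjusted p = 0.237), at 0.68 without Treg replicate 3, and Btg2 0.65 (0.311), at 0.27 without it. The 11 glucocorticoid target genes summed to 3523.7 CPM in control replicate 3, where Dusp1 was highest, and to 529.3 to 992.0 CPM in the other libraries. Pdk4 had the highest mean level of the list, 447.4 CPM over the 6 libraries. Cdkn1a and Fkbp5 were also highest in control replicate 3. Zbtb16 and Tsc22d3 were not, at 81.6 and 102.0 CPM there against 95.5 to 104.8 and 106.6 to 156.4 CPM in Treg. The median log2 fold change of the list was −0.55, and 0.31 without control replicate 3. Zbtb16 had 0.89 (edgeR adjusted p = 0.234), and passed without control replicate 3 at 1.32 (0.013; 0.013 to 0.609 over all alternatives). Tsc22d3 had 0.67 (edgeR adjusted p = 0.243), Fkbp5 −0.72 (0.287) and Cdkn1a −1.85 (0.241), the last at −0.68 without control replicate 3 and Fkbp5 at −0.30. The part of either list in the Dusp1 values was not tested.

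**Figure D4:**
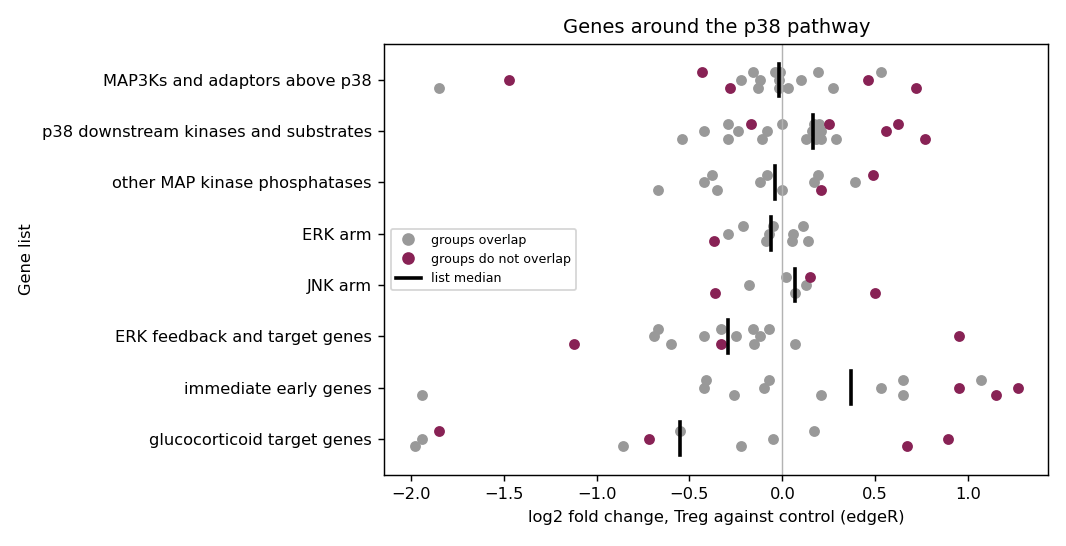
Fitted log2 fold changes, Treg against control, of the tested genes in 8 lists around the p38 pathway, with list medians as black bars and genes whose groups do not overlap in purple. Medians lie between −0.55 (glucocorticoid targets) and 0.37 (immediate early genes), and 0 of the genes shown passed the threshold by edgeR.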

How the data were processed

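Left ventricular RNA (3 control and 3 Treg libraries, 9 days after TAC) was measured as stranded mRNA libraries, per the labels' protocols. Per the submitters' processing notes the authors used the build GRCm38 and the tools featureCounts 2.0.6, HISAT2 2.1.0, Cuffdiff 2.2.1 and Trimmomatic 0.39, with roles and options not stated. The authors deposited estimated counts without normalization, of which 46.51% to 50.03% of those above 0 are fractional; they were rounded to the nearest whole number, ties upwards. The table's 6 columns that match no listed sample were not used. Symbols, coordinates and exon lengths came from GENCODE M21 (47224 IDs matched, 505 did not).

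Genes kept by filterByExpr (17365) were TMM-scaled and tested two-sided with edgeR 4.0.16 in R 4.3.3 (robust quasi-likelihood F test, no covariates, Benjamini-Hochberg over all genes). SE is the fold change over the square root of F. CPM uses TMM-scaled library sizes; correlations used log2(CPM + 0.5). DESeq2 1.42.0, limma 3.58.1 (voom), RLE scaling, 2 other filters, removal of mitochondrial genes, a replicate block and omission of each library were alternatives. Named list genes are the 4 with the smallest p in each of the pathway lists. The members and lists were chosen with earlier results of these data known. The labels do not say that each library is a separate mouse, so the spread behind the p-values may be technical.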

Additional observations from a re-analysis of the deposited data

How the results depend on the processing

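The count of genes past the threshold by edgeR, 0, became 650 with DESeq2, 38 with no filter, 82 at an adjusted p under 0.1, and 0 to 230 when 1 library was left out, the highest without control replicate 3. It stayed at 0 with limma-voom, RLE scaling, a mean of at least 1 CPM and removal of mitochondrially encoded genes (2816, 2864, 2518 and 2874 genes at an unadjusted p under 0.05). The number of genes whose groups did not overlap, 4403, was 5426 to 7684 with 1 library left out, the highest without control replicate 1. A rise is built into that count, since fewer libraries leave fewer values that can overlap. The Map2k6 log2 fold change was 1.88 to 2.24 over these alternatives, a description only, since the gene was picked for its pattern. Map2k3, Mapk11, Dusp4 and Dusp6 kept their direction and missed the threshold in each. Mapk12, at −0.00, was 0.00 with limma-voom, 0.02 with no filter, 0.00 with the replicate block and −0.08 to 0.07 with 1 library left out. Mapk14 was −0.07 to 0.26 and Dusp1 −0.08 to 0.39 with 1 library left out. Apart from that rise in genes without overlap, the cause of these changes was not tested. Mapk13, at 1 to 6 counts, was too shallow to test.

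The labels do not say whether the replicate numbers pair the samples. Deviations from the group means correlated at −0.116, −0.225 and 0.046 between libraries of the same number. Control replicate 1 correlated best with Treg replicate 2 (0.299). The deviations in a group are tied to each other through its mean, so these correlations cannot decide whether the numbers pair the samples. With the replicate block 0 genes passed, with 2472 at an unadjusted p under 0.05 against 2873 without it. No result was flagged for an outlying sample, since groups of 3 are too small for that check.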
